A study of Mus musculus with 8 samples.

Results

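The comparison set unstimulated CD8+ T cells of Elf4 knockout mice against those of wild-type mice. It rests on 4 of the series' 8 Affymetrix arrays, chosen by their titles: 2 of wild-type and 2 of knockout naive cells. Wild-type animals were C57BL/6. Knockout animals are given only as Elf4-/-, and neither the background strain nor the age of the animals is given in the sources used here. CD8+ T cells were purified from spleen, and those called naive were left untreated, while the other 4 arrays hold cells of both genotypes after 3.5 days of stimulation through CD3 and CD28. No label states whether a group's arrays came from separate mice, so the p-values below measure the spread between arrays, which may be technical. No Cre driver or cell-type restriction of the deletion is named.

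ELF4 is an X-linked ETS family transcription factor, a family that binds DNA around a GGAA core. In CD8+ T cells it is known for holding resting cells out of the cell cycle, in part by raising the Kruppel-like factors KLF4 and KLF2, both of which restrain proliferation. A second group of genes matters for reading resting T cells: the early response genes, such as Fos, Jun, Nr4a1 and Dusp1, are transcribed within a short time of many signals and need no new protein synthesis.

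The promoters of 4 genes are printed because these genes carry the 3 patterns described below: the fall of Klf4, the fall of early response genes (Jun and Nr4a2) and the rise of mitosis genes (Mki67). Each is the 250 bases before the annotated start, 5′ to 3′ on the gene's strand, from RefSeq on GRCm38.p6, where all 4 symbols had a match. Capitals mark the ETS core (GGAA, or TTCC on the other strand) in Klf4, Jun and Nr4a2. In Mki67 they mark the CCAAT box (CCAAT or ATTGG) and the CHR element (TTTGAA), which are features of many cell cycle promoters.
Klf4 (chr4:55532476-55532725, minus strand): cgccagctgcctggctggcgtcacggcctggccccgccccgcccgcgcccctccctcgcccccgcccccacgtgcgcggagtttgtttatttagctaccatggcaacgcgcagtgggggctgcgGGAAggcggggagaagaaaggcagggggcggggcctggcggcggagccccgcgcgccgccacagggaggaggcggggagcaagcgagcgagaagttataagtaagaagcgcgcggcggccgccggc
Jun (chr4:95052223-95052472, minus strand): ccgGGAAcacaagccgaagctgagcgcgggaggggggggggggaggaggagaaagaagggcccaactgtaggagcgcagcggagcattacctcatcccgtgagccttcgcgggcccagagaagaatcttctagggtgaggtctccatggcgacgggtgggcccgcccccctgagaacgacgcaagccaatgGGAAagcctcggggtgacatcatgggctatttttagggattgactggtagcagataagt
Nr4a2 (chr2:57124004-57124253, minus strand): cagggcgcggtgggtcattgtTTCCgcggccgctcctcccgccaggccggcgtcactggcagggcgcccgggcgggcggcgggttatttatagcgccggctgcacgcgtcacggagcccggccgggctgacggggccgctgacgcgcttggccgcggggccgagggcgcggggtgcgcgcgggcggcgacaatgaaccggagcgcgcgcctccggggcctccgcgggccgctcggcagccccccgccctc
Mki67 (chr7:135716380-135716629, minus strand): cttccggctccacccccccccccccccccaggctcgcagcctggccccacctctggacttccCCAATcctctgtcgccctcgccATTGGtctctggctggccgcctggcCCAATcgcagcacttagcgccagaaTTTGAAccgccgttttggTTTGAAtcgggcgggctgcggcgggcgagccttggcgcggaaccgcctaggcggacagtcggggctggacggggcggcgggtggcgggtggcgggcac
The window of Klf4 holds 1 ETS core, that of Jun 2, that of Nr4a2 1 and that of Mki67 3, the last not in capitals. An ETS core occurs in 93.4% of 32851 promoter windows of this length, so its presence sets none of these genes apart. The longer form CGGAAG, found in 13.6% of windows, contains the core and occurs once in Mki67, where it overlaps one of its cores, and in none of the other 3. Mki67 holds 3 CCAAT boxes, a motif of 33.8% of windows, and 2 CHR elements, a motif of 16% of windows, while Jun holds 1 CCAAT box just upstream of its second ETS core. None of the 4 windows holds the cyclic AMP response element TGACGTCA (1.55% of windows), the AP-1 site TGANTCA (6.75%) or the serum response element (1.47%). Both strands were searched. These are letter matches in a short window and not binding sites.

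On the 4 naive arrays the authors' intensities had medians of 70.7 to 86.2 units. Taken over probe sets (not independent of each other), the wild-type arrays correlated at 0.94, the knockout arrays at 0.956 and arrays of different genotype at 0.936 to 0.948. RNA integrity was read from Actb, as the signal at its 3′ end over that at its 5′ end, which was 2.13 and 2.5 in wild type against 1.99 and 1.96 in knockout. This 3′ to 5′ ratio was therefore lower on both knockout arrays. The same ratio for Gapdh was 4.04 and 4.42 in wild type against 4.21 and 3.38 in knockout, with overlap. Eif2s3y, a Y-linked gene, read 2537 to 5146 on the naive arrays, so all 4 carried male RNA. Both naive wild-type arrays bear one array-file label in their descriptions, yet their values differ.

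CD8 T cell identity genes gave no call. Cd8a, a chain of the CD8 coreceptor, read 17150 and 16424 in wild type against 14240 and 14897 in knockout, both lower. Cd8b1, the other chain, read 14095 and 11866 in wild type against 13370 and 11695 in knockout, with overlap. Of 18 tested identity genes 0 passed in limma (1 higher and 3 lower at an unadjusted p under 0.05), and their median log2 difference was -0.03. Both knockout arrays lay below wild type for 5 of the 18 and above for 6, and their summed intensity was 163305 to 171048 in knockout, below the 173462 to 188867 of wild type. Cd4, the coreceptor of helper T cells, read 18 to 42.3 on the naive arrays, under the array medians. The label of CD8+ T cells thus has its defining markers at high levels on all 4 arrays.

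Elf4 itself read low. Its brighter probe set read 116 and 199 in wild type against 165 and 192 in knockout, with overlapping groups and a log2 difference of 0.21 ± 0.39 (SE, limma adjusted p = 0.891). The position of its probes relative to the deletion was not analysed here, so this value checks no label. The 10 nearest tested genes on either side of Elf4 on the X chromosome differed by -0.78 to 1.39 on the log2 scale, and 0 of these 20 passed the threshold in limma, Enox2 and Firre alone having an unadjusted p under 0.05.

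Across the genome, 154 of 27348 tested probe sets differed between the genotypes (0.563% of those tested) at an adjusted p under 0.05 in limma, with 86 higher in knockout (0.314%) and 68 lower (0.249%). All differences are knockout minus wild type on the scale of log2(intensity + 16), which understates the change of dim genes, and folds are ratios of mean intensity. The calls named 128 of 12823 genes (0.998%), of which 72 rose (0.561%) and 56 fell (0.437%). A difference of at least 2-fold was reached by 126 of the 154, and in 0 of the 154 did the arrays of the genotypes overlap. That absence of overlap is weak by itself, since 38.2% of all tested probe sets had none. Just inside the threshold lay Tbrg4 at -0.66 and Hspa5 at -0.66, and just outside it Rbm12 at 0.72 and Mapkapk3 at -0.86.

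**Figure D1:**
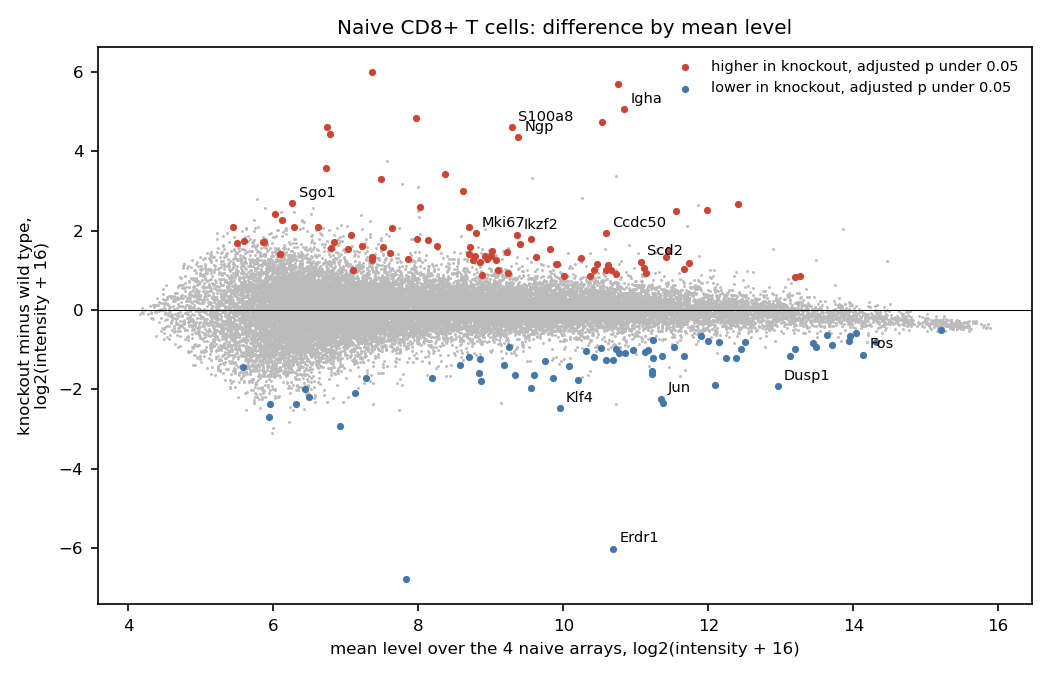
Each point is 1 tested probe set in naive cells; the x axis is its mean level over the 4 naive arrays and the y axis knockout minus wild type, both as log2(intensity + 16). The 86 red points passed upward and the 68 blue points downward, and of the labelled genes Igha lies highest and Erdr1 lowest.

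These counts rest on a spread shared by all 8 arrays, and they shrink without it. A fit of the 4 naive arrays alone called 5 probe sets (0.0183%), all among the 154. Each of the 154 had an unadjusted p under 0.05 there, but the same arrays had selected them, so that adds no support. The naive arrays varied more between replicates than the activated ones, with median SDs of 0.256 (wild type) and 0.23 (knockout) against 0.172 and 0.174 on the log2 scale. Without the second naive knockout array 28 probe sets passed, without the first 235, without either activated wild-type array 27 and without either activated knockout array 35. With the Actb ratio as a covariate 18 passed. The direction of each of the 89 named probe sets that passed was kept in every one of the 21 alternatives that tested it. With no overlap between the genotypes, leaving out an array or changing the offset or filter could not turn a direction. The brightest probe sets leaned downward as a whole: the 905 with a mean level of at least 13 had a median difference of -0.21, against 0.05 for the 6377 between 9 and 11, and 12 of the 14 calls among them fell.

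Klf4 was the Kruppel-like factor with the widest fall. It read 1861 and 2894 in naive wild-type cells and 535 and 302 in naive knockout cells. Both knockout arrays lay below both wild-type arrays, by 5.68-fold on the means (log2 difference -2.48 ± 0.31 SE, limma adjusted p = 0.0119). The gene's other, dimmer probe set read 113 and 340 in wild type against 207 and 87.9 in knockout, so its groups overlapped (-0.49, adjusted p = 0.862). Without the second knockout array the brighter probe set stood at -2.08 with an adjusted p of 0.0635.

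Klf2, the other Kruppel-like factor tied to ELF4 and a driver of homing receptor expression, read 13065 and 15381 in wild type against 13372 and 17568 in knockout. Its groups overlapped, with a log2 difference of 0.11 (adjusted p = 0.872) whose sign turned when single arrays were left out. Klf6, a factor induced early by many stimuli, read 3663 and 4468 in wild type against 2014 and 2232 in knockout. Both knockout arrays were lower (-0.93 ± 0.15 SE, adjusted p = 0.026), and the 4 other probe sets of Klf6 lay at -0.77 to -1.28 without passing. Of 14 Kruppel-like factors tested (list median -0.15, against 0.02 over all genes) these 2 fell and 0 rose. The 2 are 14.3% of those tested, against 0.437% of all genes that fell. Without the second knockout array neither passed.

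Other genes that keep T cells at rest gave no call. Of 27 further quiescence factors (Foxo1, Tob1, Btg1, the CDK inhibitors, pocket proteins and others) 0 passed in limma, 4 were higher and 5 lower at an unadjusted p under 0.05, and the median was 0.13. Rb1, which restrains entry into DNA synthesis, read 1443 and 1576 in wild type against 2122 and 2655 in knockout, without overlap but also without passing (0.65, adjusted p = 0.132). Among 17 homing receptors 0 passed in limma, and 1 was higher at an unadjusted p under 0.05. Ccr7, the chemokine receptor that brings naive T cells into lymph nodes, read 9717 and 9674 in wild type against 8955 and 7233 in knockout (-0.27, adjusted p = 0.487). S1pr1, which lets T cells leave lymph nodes, read 2491 on both wild-type arrays and 2348 and 2800 in knockout (0.04, adjusted p = 0.965). Il7r, the survival cytokine receptor of resting T cells, read 22248 and 21964 in wild type against 24217 and 24699 in knockout (0.15, adjusted p = 0.662).

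Early response genes fell. Over 5 lists (AP-1 subunits, Nr4a and Egr factors, Dusp phosphatases, NF-kB subunits with their inhibitors, and other early response genes) 16 of 87 tested genes passed downward (18.4%, against 0.437% of all genes) and 0 passed upward. Their median difference was -0.39. All gene lists were chosen with earlier results of these data known, so these shares are no independent test. In 44 of the 87 both knockout arrays lay below both wild-type arrays, and in 7 both lay above. Over all 12823 genes those counts were 2489 and 2610. Summed over the lists, intensity was 282221 and 328628 in wild type against 204858 and 183233 in knockout. The Actb ratio was lower on the same knockout arrays, and in the fit with that ratio as covariate 3 of these genes passed. The differences themselves stood there at -1.10 for Fos, -1.25 for Zfp36 and -1.86 for Dusp1, with adjusted p of 0.0952, 0.0822 and 0.0822 in limma. Without the second knockout array 4 passed, and without the first 14.

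Among AP-1 subunits, the factors that pair to bind the TGANTCA site, Jun had the widest fall of those that passed. It read 6164 and 5166 in wild type against 1456 and 979 in knockout. The knockout arrays were both far below the wild-type ones, 4.65-fold on the means (-2.23 ± 0.24 SE, adjusted p = 0.0058), and a second Jun probe set also fell (-1.40, adjusted p = 0.026). Junb, a Jun relative, read 3411 and 5108 in wild type against 1754 and 1027 in knockout (-1.62 ± 0.27 SE, adjusted p = 0.0301). Fos, the usual partner of Jun, was among the brightest genes, at 24169 and 29038 in wild type against 13860 and 10744 in knockout. It fell by 1.12 on the log2 scale (adjusted p = 0.0171), and by 0.86 after quantile normalization. Fosb read 284 and 575 in wild type against 161 and 55.8 in knockout, and Atf3 130 and 250 against 83.3 and 39. Neither passed, although neither overlapped (adjusted p = 0.292 and 0.125). Jund, which is expressed more constantly than its relatives, overlapped (-0.36, adjusted p = 0.709).

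The Nr4a and Egr factors follow antigen receptor signals, and 2 of 9 fell, a count that was 1 in 15 of 21 alternatives and 0 in 3, the fits without a trend, with the Actb ratio as covariate and of the naive arrays alone. The 2 are 22.2% of those tested, against 0.437% of all genes that fell. Nr4a2, an orphan nuclear receptor, read 213 and 348 in wild type against 52.1 and 50.7 in knockout. The knockout arrays were nearly equal to each other and 5.46-fold under the wild-type mean (-2.10 ± 0.24 SE, adjusted p = 0.00615). Of the 5 tested probe sets of Nr4a2 only this 1 passed, and 1 was higher in knockout. Nr4a1, widely used as a reporter of receptor signalling, read 1415 and 3263 in wild type against 757 and 519 in knockout (-1.75 ± 0.33 SE, adjusted p = 0.0493), and kept its call in 3 of 21 alternatives. Its wild-type arrays differed from each other more than its knockout arrays did. The third member did not follow: Nr4a3 read 557 and 492 in wild type against 648 and 590 in knockout (0.23, adjusted p = 0.638). Egr1 read 3933 and 5358 in wild type against 3626 and 3010 in knockout (-0.47, adjusted p = 0.322).

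Feedback inhibitors of signalling were also among the falls, with 2 of 10 Dusp phosphatases lower (20%, against 0.437% of all genes) and 0 higher. Dusp1, which removes phosphate from p38 and other MAP kinases, read 12895 and 18549 in wild type against 5335 and 3118 in knockout. Both knockout arrays were lower, 3.72-fold on the means (-1.92 ± 0.25 SE, adjusted p = 0.0136). Dusp2, a lymphocyte phosphatase of the same family, read 4686 and 5036 in wild type against 2053 and 2273 in knockout (-1.16 ± 0.17 SE, adjusted p = 0.0192). Tnfaip3 encodes A20, which shuts off NF-kB signalling, and read 6265 and 11098 in wild type against 2338 and 2161 in knockout (-1.88 ± 0.22 SE, adjusted p = 0.00637). It was the only one of 14 NF-kB genes to pass (7.14%, against 0.437% of all genes that fell). Nfkbia, the classic inhibitor of NF-kB, read 28580 and 38475 in wild type against 27624 and 20171 in knockout, without passing. Dusp5, an ERK phosphatase, had a wider difference than Dusp1 but scattered knockout arrays, at 366 and 665 in wild type against 177 and 24.7 in knockout (-2.53, adjusted p = 0.103).

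Of the 39 other early response genes 8 fell (20.5%, against 0.437% of all genes) and 0 rose. Ppp1r15a, a phosphatase subunit that ends the stress-induced block of translation, read 5514 and 6412 in wild type against 1436 and 954 in knockout. It had the widest difference of this list on the log2 scale (-2.33 ± 0.28 SE, adjusted p = 0.008). Zfp36, which speeds decay of cytokine mRNAs, read 7892 and 8351 in wild type against 3158 and 3800 in knockout (-1.22, adjusted p = 0.0143). Its relative Zfp36l2 read 15567 and 16007 in wild type against 7483 and 9292 in knockout (-0.92, adjusted p = 0.0321), a call that was lost after quantile normalization and after median centring. The G protein regulators Rgs1 and Rgs2 fell by 1.97 and 1.70 on the log2 scale. Cd69, the early activation marker that holds T cells in tissue, read 6371 and 8565 in wild type against 3512 and 2835 in knockout, without overlap (-1.22 ± 0.18 SE, adjusted p = 0.0171). Ier2 and Plk2 completed the list, at -0.99 and -2.18.

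**Figure D2:**
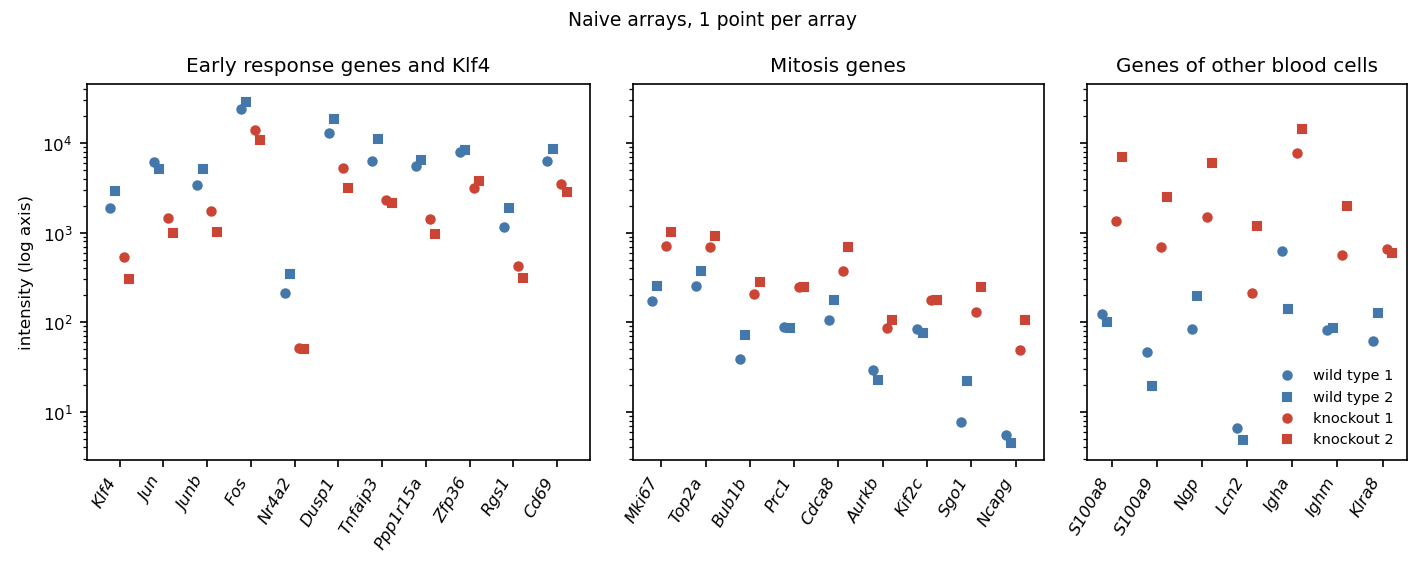
Intensity on each naive array (log axis) for early response genes with Klf4, for mitosis genes and for genes of other blood cells; blue marks wild type, red knockout, circles replicate 1 and squares replicate 2. Both red points lie below both blue points in the first panel and above them in the other panels, and for S100a8, S100a9, Ngp and Lcn2 the second knockout array stands well above the first.

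Of 14 heat shock genes 3 fell (21.4%, against 0.437% of all genes) and 0 rose, with a median of -0.03. None of the 3 passed with median centring, with array weights, with the replicate block or with the Actb ratio as covariate. The same held without a trend and in the fit of the naive arrays alone. Nor did the 3 calls hold without any 1 activated array or without the second naive knockout array. In the last fit the differences stood at -1.54 for Hspa1b, -0.99 for Dnajb1 and -0.59 for Hspa5. Hspa1b, an inducible HSP70, read 738 and 483 in wild type against 195 and 246 in knockout (-1.38, adjusted p = 0.0299). Dnajb1, an HSP70 partner, read 1889 and 1727 in wild type against 905 and 850 in knockout (-1.03, adjusted p = 0.0321). Both fell clear of the wild-type arrays. Hspa5, the chaperone BiP of the endoplasmic reticulum, was bright and passed narrowly (-0.66, adjusted p = 0.0497), and did not after quantile normalization. Dnajb9, another endoplasmic reticulum chaperone, outside the list and named after its value was seen, read 4038 and 4089 in wild type against 1192 and 1625 in knockout (-1.53 ± 0.17 SE, adjusted p = 0.00615).

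Mitosis genes rose, from low levels. Of 49 tested members 9 passed upward (18.4%, against 0.561% of all genes) and 0 downward, with a median of 0.69 against 0.02. In 27 of the 49 both knockout arrays lay above both wild-type arrays, and in 2 both lay below. Over all 12823 genes those counts were 2610 and 2489. This list too was chosen with earlier results of these data known, so its share is no independent test. At an unadjusted p under 0.05, 27 were higher and 1 lower. Mki67, which encodes the Ki-67 protein of cycling cells, read 174 and 255 in wild type against 714 and 1006 in knockout. Both knockout arrays were higher, 4.01-fold on the means (1.93 ± 0.20 SE, adjusted p = 0.00427). Its level in activated cells was 10582 to 14188, so the naive knockout level stayed far below that of stimulated cells. In a bulk sample a larger share of cycling cells and more of this RNA per cell cannot be told apart.

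The other mitosis genes that passed span several steps of division. Top2a, the topoisomerase that untangles chromosomes, read 251 and 370 in wild type against 700 and 922 in knockout (1.35 ± 0.19 SE, adjusted p = 0.0171). Prc1, which bundles the central spindle, read 88.5 and 86.5 in wild type against 246 and 248 in knockout (1.34 ± 0.18 SE, adjusted p = 0.0143). Replicates of both genotypes nearly coincided for Prc1. The checkpoint kinase Bub1b, the chromosomal passenger genes Cdca8 and Aurkb and the kinesin Kif2c rose by 1.89, 1.77, 1.42 and 1.01. Sgo1, which protects centromere cohesion, read 7.68 and 22.3 in wild type against 130 and 245 in knockout (2.69 ± 0.33 SE, adjusted p = 0.00819). Ncapg, a condensin subunit, passed with 1 probe set (2.10) while its brighter one overlapped (-0.62, adjusted p = 0.73). Another tested probe set was also lower in knockout for Top2a (1 of 2), Cdca8 (1 of 3) and Kif2c (1 of 4). Among members that did not pass, Birc5 read 30.7 and 131 in wild type against 214 and 346 in knockout, and Cdk1 33.5 and 159 against 282 and 198. Without the second knockout array 1 of the 49 passed, without the first 12, and 1 in the fit with the Actb ratio as covariate. In that fit the differences stood at 1.28 for Prc1, 1.38 for Top2a and 2.04 for Bub1b, with adjusted p of 0.0952, 0.0952 and 0.0545 in limma.

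Replication genes showed no such shift. Of 49 tested 1 rose (2.04%, against 0.561% of all genes) and 1 fell (2.04%, against 0.437%), with a median of -0.04. Rrm2, a subunit of the enzyme that makes deoxynucleotides, read 382 and 356 in wild type against 723 and 795 in knockout (1.01 ± 0.13 SE, adjusted p = 0.0132). Orc1, a subunit of the origin recognition complex, fell on a dim probe set, from 133 and 117 to 11.6 and 11.4, while another read 65.2 and 76.8 in wild type against 69.8 and 58.4 in knockout (-0.12, adjusted p = 0.896). The 2 lists were not tested against each other.

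**Figure D3:**
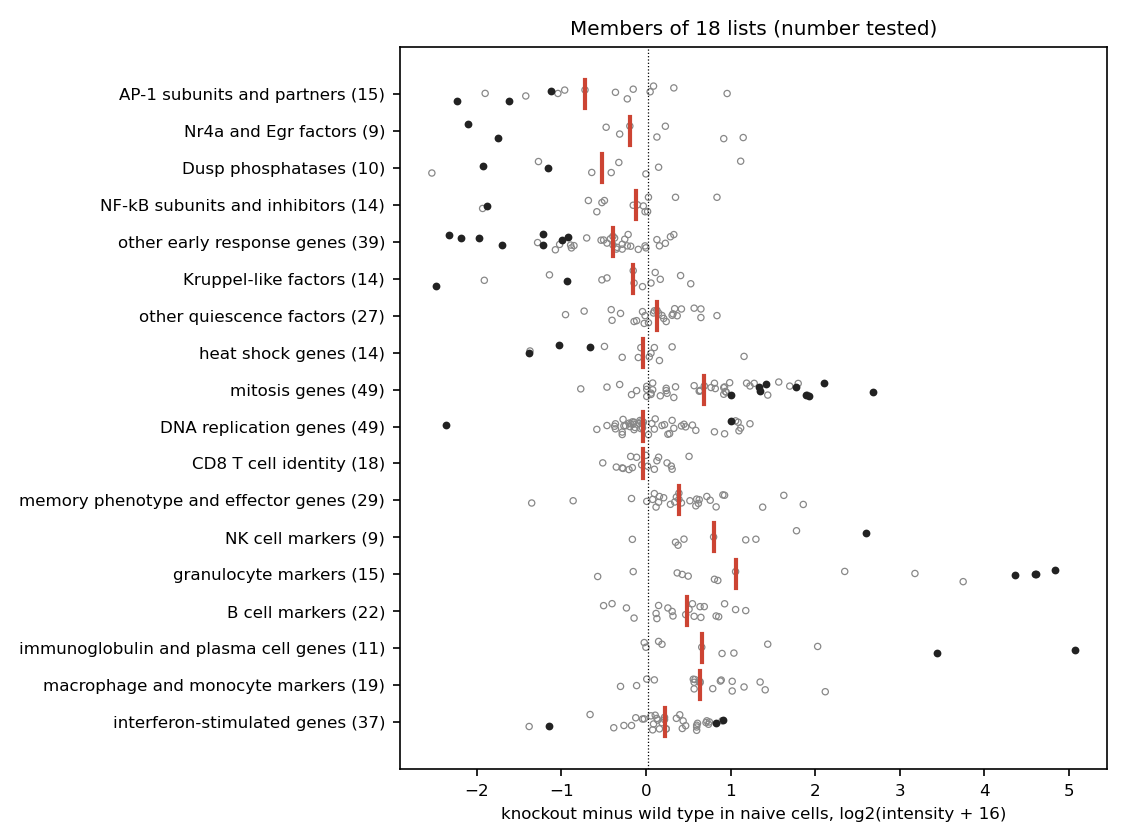
Each point is 1 gene of a list in naive cells, at knockout minus wild type on the log2(intensity + 16) scale; filled points passed an adjusted p of 0.05 and are drawn at the probe set that passed, open points at the gene's brightest probe set. Red bars are list medians and the dotted line the median of all genes, 0.02; the medians of the early response lists lie left of it, and those of mitosis genes and of the NK cell, granulocyte, B cell, immunoglobulin and macrophage lists right of it.

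Of 29 memory phenotype and effector genes 0 passed in limma, 12 were higher and 2 lower at an unadjusted p under 0.05, and the median was 0.39. Both knockout arrays lay above wild type for 14 of the 29 and below for 3, where over all 12823 genes they did so for 2610 and 2489. Tbx21, the effector factor T-bet, read 736 and 770 in wild type against 1252 and 1312 in knockout (0.76, adjusted p = 0.0754). Eomes, the related factor of memory cells, read 2027 and 1225 in wild type against 2814 and 3132 in knockout (0.91, adjusted p = 0.14). Cd44, the usual surface marker of memory T cells, overlapped at 1684 and 2744 in wild type against 2712 and 1913 in knockout (0.08, adjusted p = 0.931). Ifng, the main effector cytokine of CD8+ T cells, read 1017 and 2382 in wild type against 657 and 550 in knockout (-1.35, adjusted p = 0.0981).

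Receptors and a factor known from other T cell states rose singly. Ikzf2, which encodes Helios, read 319 and 334 in wild type against 1216 and 1279 in knockout. Replicates lay close together, and the gap was 3.82-fold (1.88 ± 0.16 SE, adjusted p = 0.0013). It was also higher in activated knockout cells, at 3362 and 3005 against 1570 and 1657 (0.97, adjusted p = 0.046). Gpr83, a receptor best known from regulatory T cells, read 223 and 151 in wild type against 670 and 1059 in knockout (2.10, adjusted p = 0.0493). These 2 were the members of the CD4 and regulatory T cell list, with 10 tested, that passed (20%, against 0.561% of all genes that rose). Foxp3, which defines regulatory T cells, read 69.6 and 98.7 in wild type against 37.5 and 66.5 in knockout, and was too dim to be tested. Pdcd1, the inhibitory receptor PD-1, read 53.9 and 44.4 in wild type against 165 and 186 in knockout (1.56, adjusted p = 0.0301), the only one of 11 inhibitory receptors to pass. Klra8, a receptor of the Ly49 family, read 62.1 and 126 in wild type against 664 and 588 in knockout (2.60, adjusted p = 0.0493). Ly49 genes are near-identical copies whose probes may share signal.

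Genes of granulocytes and plasma cells gave the widest rises among genes with a symbol. Igha, the heavy chain of IgA, read 626 and 139 in wild type against 7832 and 14345 in knockout (5.07 ± 0.74 SE, adjusted p = 0.0183). S100a8, a subunit of the calprotectin complex of neutrophils, read 123 and 101 in wild type against 1354 and 6941 in knockout (4.60 ± 0.61 SE, adjusted p = 0.0136). Lcn2, a neutrophil granule protein, read 6.54 and 4.8 in wild type against 214 and 1201 in knockout (4.61 ± 0.82 SE, adjusted p = 0.0392). Both knockout arrays lay above wild type in each, and for S100a8 and Lcn2 the second read several times the first. S100a9 and Ngp also rose, so 4 of 15 tested granulocyte markers passed, and 0 of the 4 did without the second knockout array. The 4 are 26.7% of those tested, against 0.561% of all genes that rose. S100a9 and Lcn2 reached the array median only on the 2 naive knockout arrays, so they were tested only because they were high there. Summed over the list, intensity was 1116 and 1483 in wild type against 5570 and 21968 in knockout. Cxcr2, a defining receptor of mature neutrophils, read 14.5 to 48.8 on the naive arrays, too dim to be tested.

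The same array was high for other cell types. Summed B cell markers read 27939 and 27905 in wild type against 24927 and 52917 in knockout, and 0 of 22 passed in limma (1 higher at an unadjusted p under 0.05). Summed macrophage and monocyte markers read 23338 and 24740 in wild type against 22489 and 34746 in knockout, and 0 of 19 passed (6 higher and 1 lower at an unadjusted p under 0.05). In these sums the second knockout array held the most signal of both lists, and the first the least. The mean log2 level, which weights genes equally, was 9.47 and 9.29 in wild type against 9.21 and 10.36 in knockout for the 22 B cell markers. For the 24 macrophage and monocyte markers on the array it was 7.57 and 7.52 in wild type against 7.79 and 8.46 in knockout, above wild type on both knockout arrays, and the list median without the second was 0.28 against 0.64 with it. Ighm passed with a dim probe set (3.44, adjusted p = 0.0379), while its brightest read 25469 and 23957 in wild type against 18632 and 18897 in knockout (-0.40, adjusted p = 0.225). Summed NK cell markers overlapped, at 21435 and 17008 in wild type against 18518 and 19500 in knockout, but their mean log2 level did not, at 6.93 and 6.96 in wild type against 7.22 and 7.83 in knockout. Of 9 tested NK cell genes Klra8 passed upward (11.1%, against 0.561% of all genes), and the median was 0.80. Both knockout arrays lay above wild type for 5 of the 9 and below for 0. Over all 12823 genes those counts were 2610 and 2489. Of 8 erythroid markers 0 passed in limma (1 higher and 1 lower at an unadjusted p under 0.05), with a median of -0.20, and of 8 platelet markers 0 passed (1 higher and 3 lower), with a median of -0.43. Of 11 dendritic cell markers 0 passed (3 higher and 1 lower), with a median of 0.37. What part these cells play in the rise of mitosis genes or the fall of early response genes was not tested. Without that array the list median was 0.49 for mitosis genes and -0.37 for early response genes, against 0.69 and -0.39 with it.

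Interferon-stimulated genes gave 2 rises (5.41%, against 0.561% of all genes) and 1 fall (2.7%, against 0.437%) among 37 tested. Their median was 0.22. Igtp, an interferon-induced GTPase, read 6316 and 7822 in wild type against 11272 and 13948 in knockout (0.83, adjusted p = 0.0332). Its relative Irgm2 read 1378 and 1078 in wild type against 2233 and 2386 in knockout (0.91, adjusted p = 0.0487). Both were clear of wild type. Neither passed without the second naive knockout array, without any 1 activated array, with no filter, with array weights, without a trend, in the fit with the Actb ratio as covariate or in that of the naive arrays alone. Ly6e, a membrane protein also made by resting T cells, fell instead, from 12948 and 13726 to 7502 and 4792 (-1.15, adjusted p = 0.0249). In 22 of the 37 both knockout arrays lay above wild type, and in 3 below, where over all 12823 genes those counts were 2610 and 2489. Of 19 ETS family genes 0 passed in limma, with 1 lower at an unadjusted p under 0.05, and of 14 Bcl2 family genes 0 passed, with 1 higher and 1 lower.

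A few features behaved as present in one genotype and nearly absent in the other, and did so in both cell states. Erdr1, an X-linked gene, read 17613 and 9961 in naive wild-type cells and 174 and 207 in naive knockout cells (-6.01 ± 0.28 SE, adjusted p = 9.5e-06). In activated cells it read 10009 and 8385 in wild type against 113 and 179 in knockout. Of 2 tested Erdr1 probe sets only this 1 passed in naive cells, and the other was lower in knockout without passing. The unnamed probe set 1457769_at went the opposite way, from 4.33 and 4.71 in naive wild type to 1194 and 1390 in knockout (5.99, adjusted p = 1.78e-05), and from 3.6 and 4.35 to 1026 and 900 in activated cells. One of the 3 probe sets of Scd2, a fatty acid desaturase, read 7.53 and 23.5 in naive wild type against 552 and 222 in knockout (3.59, adjusted p = 0.00615), with a difference of 4.19 in activated cells. Another Scd2 probe set rose by 1.22 in naive cells and did not pass in activated ones (0.34, adjusted p = 0.635), and the remaining one did not pass in either state. Probe sets of 1 gene thus gave different answers here.

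Few of the naive calls also passed in activated cells. The activated contrast uses other arrays and shares only the estimate of spread. There, 59 probe sets passed (0.216%), and of the 154 naive calls 8 passed there too, 7 in the same direction. The same sign in activated cells was seen for 55.2% of the 154 and for 53.1% of all tested probe sets. The exception in direction was Il24, a cytokine of the IL-10 family. It read 64.2 and 61.4 in naive wild type against 15.1 and 11.4 in naive knockout. In activated cells it read 872 and 1056 in wild type against 3659 and 3492 in knockout. The naive values of Il24 all lay under the array medians, so it was tested only because of its activated arrays. For Klf4 the activated arrays read 391 and 280 in wild type against 284 and 363 in knockout (-0.04, adjusted p = 0.983). The difference between states passed for 16 probe sets in all (0.0585%), 10 of them among the 154, so for the others a difference between states was not shown. Naive and activated arrays carry different array-file series in their labels and differ in the sex of the RNA, so state cannot be told apart from these.

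**Figure D4:**
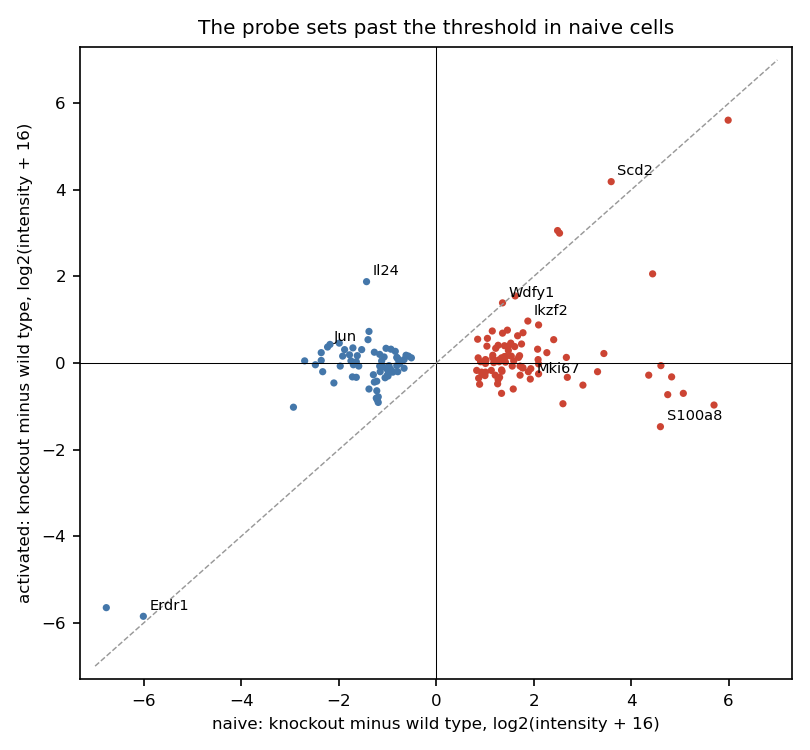
For the 154 probe sets that passed in naive cells, knockout minus wild type in naive cells (x axis) and in activated cells (y axis), both on the log2(intensity + 16) scale; red rose and blue fell in naive cells, and the dashed line marks equal differences. Of the 154, 8 passed in activated cells as well; Erdr1 and Scd2 lie near the dashed line and Il24 has opposite signs.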

How the data were processed

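RNA of CD8+ T cells was measured on 8 one-colour Affymetrix arrays, 2 for each of wild-type naive, knockout naive, wild-type activated and knockout activated cells, grouped by title. The authors deposited linear intensity values per probe set, made with MAS5 per the submitters' processing notes. No MAS5 version is given there. Each array had a 2% trimmed mean of 500, so the deposited intensity values were already scaled, and detection calls were not used. The number of arrays limits the precision.

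Of 45101 probe sets 64 were controls. Gene symbols from the platform annotation were found for 34958 probe sets (several for 932, none for 9211), and 34754 were updated through Entrez identifiers to GRCm38.p6. Values were taken as log2(intensity + 16) and fitted in R 4.3.3 with limma 3.58.1 (lmFit, eBayes with a trend, 4 group means over 8 arrays, 4 residual and 6.67 prior degrees of freedom), two-sided, adjusted by Benjamini-Hochberg over the 27348 probe sets at or above the array median on at least 2 of 8 arrays. A gene counted as called if any of its probe sets passed an adjusted p of 0.05. List medians used the brightest probe set of each gene. The fit was tested on simulated data.

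Members and all gene lists were chosen with earlier results of these data known. Named genes were Elf4, Klf4, Klf2, Ccr7, S1pr1, Il7r, Cd44 and Mki67, the 20 widest rises and falls past the threshold, up to 4 members of each list by p, and the neighbours of the threshold. Others are further members of the lists, or were named after their values were seen: Dnajb9, Ccdc50, Ncf1, Ncf4, Scd2, Wdfy1, Mtmr7, Il24, Cdc25b, Nek2, Plk4, Stmn1, Pclaf, Rad51ap1, Kpna2, Rpl8 and the genes that the list counts name. Promoters printed followed the smallest adjusted p within their lists.

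Alternatives were other offsets and scalings, other filters, other variance priors, array weights, the replicate number as a block, the Actb ratio as a covariate, the naive arrays alone and leaving out each array. A filter on the naive arrays was added after the data were seen. Deviations of same-numbered arrays correlated at -0.0993 to 0.0436, so the numbers were not taken as pairs.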

Additional observations from a re-analysis of the deposited data

Results flagged for a closer look

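These genes passed the test of the difference between the naive and the activated genotype effect (naive minus activated, limma on all 8 arrays). Naive and activated arrays differ in array-file series and in the sex of the RNA, and what part these have in a difference was not tested. Among early response genes, Jun differed by -2.60 between the states (-2.23 naive, 0.37 activated, adjusted p = 0.0335) and Tnfaip3 by -2.19 (-1.88 and 0.31, adjusted p = 0.0471). The chaperone Dnajb9 differed by -1.85 (adjusted p = 0.0335). Mki67 differed by 2.30, being 1.93 in naive and -0.37 in activated cells (adjusted p = 0.0225). The cytokine Il24 differed by -3.31, with -1.43 in naive and 1.88 in activated cells (adjusted p = 0.0127). Its naive values all lay under the array medians, so the naive difference is between dim signals. Ccdc50, an adaptor of NF-kB signalling, differed by 2.07 (1.94 and -0.13, adjusted p = 0.0225). These values are of the 1 among its 4 tested probe sets that passed in naive cells. The unnamed probe set 1417185_at differed by 2.54 (2.67 and 0.13, adjusted p = 0.0471).

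Genes of granulocytes and plasma cells make up the rest. S100a8 differed by 6.06 (4.60 naive, -1.47 activated, adjusted p = 0.0483), and its activated intensities were at most 46.3. The Igha probe sets 1429381_x_at and 1421653_a_at differed by 5.48 (adjusted p = 0.0127) and 6.67 (adjusted p = 0.0225), and on the activated arrays these read at most 152 and 103.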

How the results depend on the processing

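The naive knockout against wild type comparison called 154 probe sets. Offsets, scalings, stricter filters, robust estimation and the replicate block gave 108 to 182. It called 102 with no filter, 3 without a trend (1 of them higher), 57 with array weights, 18 with the Actb ratio as a covariate and 5 on the naive arrays alone, and leaving out 1 array gave 27 to 235. Without wild-type activated replicate 1 or 2 there were 27, without knockout activated replicate 1 or 2 there were 35, without knockout naive replicate 2 there were 28, of which 21 were among the 154, and without knockout naive replicate 1 there were 235. A group reduced to 1 array was taken to have the spread of the other groups, and fewer arrays leave fewer degrees of freedom. Median centring moved the median of all probe sets by 0.10 and the share of calls that rose from 55.8% to 72.7%. With the replicate number as a block 108 passed, 100 of them among the 154, and the naive pairing correlation was -0.0993.

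The activated knockout against wild type comparison (59) gave 31 with median centring, 7 without a trend, 92 with robust estimation, 438 with array weights, 26 with the replicate block, 6 with the Actb ratio, 734 on the activated arrays alone and 8 to 103 without 1 array. The difference of the genotype effect between states (16) gave 26 with an offset of 64, 0 without a trend (2321 at an unadjusted p under 0.05 in limma), 26 with robust estimation, 30 with array weights, 0 with the Actb ratio (1314 unadjusted), 14 with the replicate block and 0 to 84 without 1 array. The cause of these changes was not tested.

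All 89 named probe sets that passed kept their direction in each of the 21 alternatives that tested them. As the genotypes' arrays did not overlap, most alternatives could not have turned the direction of these probe sets. Their calls were lost for 86 without a trend, 84 in the fit of naive arrays only, 72 without knockout naive replicate 2, 71 with the Actb ratio and 47 with array weights. Leaving out a wild-type activated array lost 63, and a knockout activated array 58. Among probe sets that did not pass, Elf4 ranged from -0.14 to 0.56 when 1 array was left out, turning without wild-type naive replicate 1. Klf2 ranged from -0.08 (without knockout naive replicate 2) to 0.31, and stood at -0.01 without wild-type naive replicate 1. The second Klf4 probe set ranged from -1.22 to 0.24 (without wild-type naive replicate 2), and stood at 0.06 without knockout naive replicate 2. Signal near background limits dim genes.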

Other observations

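Further genes that passed in naive cells, named after their values were seen, concern cell division and the phagocyte oxidase. Cdc25b, a phosphatase that activates cyclin-dependent kinases, read 724 and 783 in wild type against 1618 and 2179 in knockout (1.30, limma adjusted p = 0.0295). Stmn1, a regulator of microtubule growth, read 1979 and 2550 in wild type against 4789 and 5437 in knockout (1.18, adjusted p = 0.00835). Nek2 and Plk4, kinases of the centrosome cycle, differed by 1.40 and 0.93, and Pclaf, Rad51ap1 and Kpna2 by 1.21, 1.27 and 0.94. Both knockout arrays lay above both wild-type arrays in each probe set that passed. Other tested probe sets were lower in knockout for Nek2 (2 of 3), Plk4 (2 of 3) and Rad51ap1 (1 of 4). These genes were outside the mitosis list, and they were chosen from the calls, so they add no independent count.

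Subunits of one enzyme complex went opposite ways. Ncf1, the p47 subunit of the phagocyte NADPH oxidase, read 1564 and 1758 in wild type against 4361 and 4963 in knockout (1.48 ± 0.15 SE, adjusted p = 0.00371). Ncf4, another subunit, read 2200 and 1915 in wild type against 875 and 907 in knockout (-1.19 ± 0.17 SE, adjusted p = 0.0171). Replicates lay close in both, and in activated cells the differences were 0.39 and -0.91 (adjusted p = 0.391 and 0.0666). Ccdc50 read 646 and 919 in wild type against 2873 and 3130 in knockout (1.94 ± 0.18 SE, adjusted p = 0.00183). Of its 4 tested probe sets only this 1 passed, and 1 was lower in knockout.

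Wdfy1 and Mtmr7 had like differences in both states without passing in activated cells. Wdfy1 differed by 1.36 in naive and 1.39 in activated cells (adjusted p = 0.0372 and 0.056), and Mtmr7 by 1.62 and 1.55 (adjusted p = 0.0321 and 0.0616). Called genes lay on every autosome and on the X chromosome, from 0.226% of tested genes on chromosome 14 to 2.05% on chromosome 12 (9 of 439). On the X chromosome, which holds Elf4, 2 of 387 genes passed (0.517%). Rpl8, a ribosomal protein gene among the brightest on the array, passed at -0.51 (adjusted p = 0.0493), where probe sets of that brightness had a negative median.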
